A study of Mus musculus with 9 samples.

Results

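The 10 genes described here belong to the bone morphogenetic protein (BMP) pathway, 10 of the 56289 genes in the deposited table. They are the ligands Bmp2, Bmp4 and Bmp7, the receptors Bmpr1a and Bmpr2, the target genes Id1, Id2 and Id3, and the inhibitory SMADs Smad6 and Smad7. They were listed by name, with no threshold on their values, though earlier results of these data were known when the list was made. RNA was sequenced from mouse cultures labelled as the macrophage-like line RAW264.7 of strain BALB/c, in 3 groups of 3 libraries: untreated (Con), TNF-α for 24 h, and TNF-α with Wang Bi Tablet extract for 24 h (TNF-α+WBT; the labels write WBP). TNF-α is an inflammatory cytokine, and WBT is a herbal tablet whose effect on the stimulated cells was the question of the study. Levels are given in FPKM, in which fragments are divided by the length of the transcript and by the depth of the library.

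BMPs are secreted ligands that bring together type I receptors such as BMPR1A and the type II receptor BMPR2. The active receptors phosphorylate SMAD1, SMAD5 and SMAD9, which enter the nucleus with SMAD4 and bind near target genes. The Id genes are among the best known of these targets, and their proteins bind basic helix-loop-helix (bHLH) transcription factors and keep them from DNA. SMAD6 and SMAD7 are made in response to the signal and inhibit it, SMAD7 also in the related TGF-β pathway. In connective tissue BMPs are known above all for driving bone and cartilage formation, through factors such as RUNX2.

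The label of the cultures was checked before the members were read. Of 18 macrophage markers, 7 were listed at 0 FPKM in all 9 libraries, Ptprc, Spi1, Itgam and Adgre1 among them, and 2 were above 1 FPKM throughout. In contrast, 15 of 18 fibroblast markers and 8 of 12 Schwann cell and neural crest markers were above 1 FPKM in all 9 libraries, so the RNA went against the labelled cell type, and the cells are called cultures below. The stimulus was visible: 8 NF-κB target genes summed to between 103 and 106 FPKM in Con, between 613 and 632 FPKM in TNF-α and between 498 and 524 FPKM in TNF-α+WBT. Estimated depths were 20227450 to 26051550 fragments in Con, 18892450 to 22585000 in TNF-α and 16849950 to 19824950 in TNF-α+WBT.

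In these cultures TNF-α went with a lower level of Id3 and a somewhat higher level of the ligand Bmp4. Id3 fell to 0.669 of its Con level and Bmp4 rose to 1.24 times its Con level. With WBT added to TNF-α no member passed the adjusted test, and both genes stood in TNF-α+WBT at about the level they had in TNF-α alone. In FPKM the receptors Bmpr1a and Bmpr2 and the inhibitor Smad6 did not pass in any comparison, at the adjusted or the unadjusted p. Bmp7 was listed at 0 in every library.

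Genes were tested with limma on log2(FPKM + 0.1), and 9 of the 10 members, all but Bmp7, entered the test. Between TNF-α and Con, 1 member was higher and 1 was lower at a Benjamini-Hochberg adjusted p under 0.05, where 2.94% of the 25417 genes tested were higher and 1.93% lower. At an unadjusted p under 0.05 there were 4 of 9 members, against 16.1% of all genes, and the 3 libraries of each group did not overlap for 5 members, against 21.2% of all genes. Fitted alone, the 12686 genes averaging at least 1 FPKM, as 8 members do, gave 3073 with such a p and 3821 without overlap. Of them 815 were higher and 554 lower at the adjusted p. These are larger shares than over all genes tested. In TNF-α+WBT against TNF-α, 0 members passed the adjusted limma test (0.00393% of all genes passed), 1 had an unadjusted p under 0.05 (6.31% of all genes) and 2 did not overlap (11.0%). In TNF-α+WBT against Con, 1 member was higher and 1 lower at the adjusted p, against 2.31% and 1.40% of all genes, 3 had an unadjusted p under 0.05 (14.7%), and 4 did not overlap (19.5%). On this scale no member reached the cut-offs of the study, a fold change over 2 at an unadjusted p under 0.05, which 2.42%, 1.12% and 2.29% of all genes reached in the 3 comparisons. For Bmp2, at the edge of detection, this depended on the scale and on the added 0.1, as described below. The comparisons share libraries and are not independent of each other. An exact two-sided permutation test of 3 libraries against 3 cannot give a p below 0.1, so the model across all genes is the test used for single genes.

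**Figure D1:**
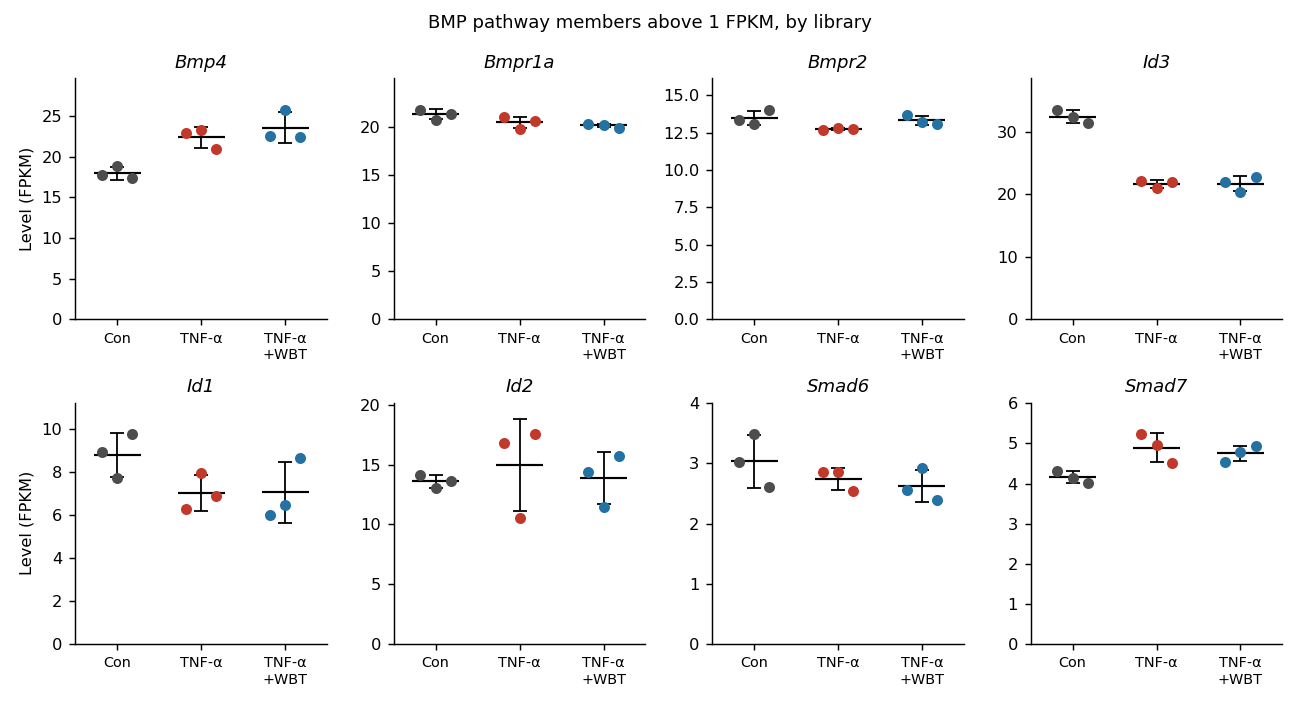
Level in FPKM (vertical axes, each starting at 0) of the 8 members above 1 FPKM in all 9 libraries, with 1 point per library, a line at the group mean and bars of 1 SD, for Con (grey), TNF-α (red) and TNF-α+WBT (blue). Id3 is lower in all 6 stimulated libraries than in the 3 Con libraries, Bmp4 is higher, and TNF-α 2 and TNF-α+WBT 2 are the lowest libraries for Id2.

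Promoter sequence is shown for the members whose level changed, Bmp4 and Id3, and for the inhibitor Smad6, whose window held the longest motif found. RefSeq promoter windows on GRCm38.p6, from 250 bases before to 50 after the start of a gene, were at hand for 6 members: Bmp4, Bmpr1a, Bmpr2, Id2, Id3 and Smad6. The stretches are written 5′ to 3′ on the strand of the gene, with motif matches in capitals and positions counted from 0 at the first base of the RefSeq transcript. Bmp4 lies on the minus strand, and the 250 bases upstream of its start are chr14:46390670-46390919. The stretches of Id3, on the plus strand, are chr4:136143642-136143671 and chr4:136143741-136143770, both inside the first exon of transcript Id3-201 in GENCODE M21, which begins upstream of the RefSeq start. The stretch of Smad6, on the minus strand, is chr9:64022045-64022074 and spans the start of the gene.
Bmp4, upstream: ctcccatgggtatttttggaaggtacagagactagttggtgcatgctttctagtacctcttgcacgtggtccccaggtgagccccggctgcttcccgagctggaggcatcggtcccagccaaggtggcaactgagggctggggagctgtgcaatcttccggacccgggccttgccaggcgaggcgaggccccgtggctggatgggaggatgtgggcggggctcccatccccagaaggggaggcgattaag
Id3, around -167: ctgtcctcggcgtCAGACcagcctaaggaa
Id3, around -68: tggacccttggcgGTCTGttttgaataagg
Smad6, around -4: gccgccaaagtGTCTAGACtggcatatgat

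The letters of 4 motifs were searched on both strands of these windows, and no match overlapped another motif. CAGAC, a short element that SMAD proteins can bind, occurred 2 times in the Id3 window and in no other of the 6, and 49.7% of 27025 RefSeq windows of 300 bases held it at least once. GTCTAGAC, the palindromic SMAD element, occurred 1 time in the Smad6 window and in 0.2% of all windows. GGCGCC, the GC-rich element of SMAD1 and SMAD5, occurred at -198 in Bmpr1a, at -105 in Bmpr2 and at -231 in Id2, and in 12.0% of all windows. The NF-κB consensus, a pattern of 10 letters, had 0 matches in the 6 windows and was present in 8.2% of all windows. The Bmp4 window held none of the 4, which says only that these letters were not in it.

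Id3 (ENSMUSG00000007872, chromosome 4, 136143497 to 136145755 of GRCm38, plus strand) was the most abundant member in untreated cultures. It encodes an inhibitor of bHLH factors and is an early target of BMP-activated SMADs. Its level was 33.5, 32.3 and 31.4 FPKM in Con 1 to 3, 22.1, 20.9 and 21.9 FPKM in TNF-α 1 to 3, and 21.9, 20.4 and 22.7 FPKM in TNF-α+WBT 1 to 3. Every Con library was thus higher than every stimulated library, and the TNF-α and TNF-α+WBT libraries lay in one range. The log2 difference of TNF-α from Con was -0.58 (standard error 0.050, limma adjusted p = 0.000259), and that of TNF-α+WBT from Con was -0.58 (standard error 0.050, limma adjusted p = 0.000334). When TNF-α+WBT was compared with TNF-α it was 0.00, with a 95% interval of -0.11 to 0.12, so a recovery of more than 0.12 on the log2 scale lay outside the interval. In estimated fragments Id3 was carried by 471 to 1079 per library.

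The fall of Id3 held in transcripts and without single libraries. Id3-201, a coding transcript of 1278 bases, held 91.1% of the gene over the 9 libraries and moved from 28.5 to 31.0 FPKM in Con to between 19.4 and 20.4 FPKM in TNF-α. Among 80149 transcripts tested, Id3-201 passed with a log2 difference of -0.57 (limma adjusted p = 0.00791) in TNF-α and of -0.57 (limma adjusted p = 0.00971) in TNF-α+WBT, both from Con. The retained-intron transcript Id3-203, with 8.29% of the gene, had log2 differences of -0.78 and -0.63 at limma adjusted p of 0.410 and 0.593. Id3-201 was the only one of 26 tested transcripts of the members to pass in any comparison; 0.635%, 0.0424% and 0.455% of all transcripts passed in TNF-α against Con, TNF-α+WBT against TNF-α and TNF-α+WBT against Con. In the 9 fits that each dropped 1 library, the gene passed every time between TNF-α and Con, at log2 differences of -0.60 to -0.56.

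Some markers of other cell types differed in the same contrast. The 12 Schwann cell and neural crest markers summed to 871 to 917 FPKM in Con, 726 to 786 in TNF-α and 782 to 815 in TNF-α+WBT. Of these, 0 were called higher and 4 lower in TNF-α than in Con (limma), against 2.94% and 1.93% of all genes. The 18 fibroblast markers summed to 5477 to 5849, 5769 to 6055 and 5749 to 5859 FPKM, ranges that overlap. Of the 17 of them tested, 3 were called higher in TNF-α than in Con, Col1a1, Col1a2 and Lox, and 2 lower, Pdgfrb (log2 difference -0.52) and Postn (-0.59). The same 2.94% and 1.93% of all genes stand beside these counts. The 18 macrophage markers summed to 9.15 to 9.93, 9.94 to 11.0 and 10.4 to 11.6 FPKM. Between TNF-α and Con 0 of the 10 tested were called, and 3 had an unadjusted p under 0.05 (limma), against 16.1% of all genes. The part of these markers in the result was not tested. In such bulk RNA, fewer cells that hold a transcript and less of it per cell cannot be told apart.

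Id1 (ENSMUSG00000042745, chromosome 2, 152736251 to 152737410, plus strand), the Id gene most often read as a BMP target, was less abundant and more variable. It stood at 8.94, 7.71 and 9.74 FPKM in Con, at 6.26, 7.92 and 6.86 FPKM in TNF-α and at 5.99, 6.47 and 8.64 FPKM in TNF-α+WBT. Con 2 lay below TNF-α 2 and TNF-α+WBT 3, so the groups overlapped. The log2 difference was -0.32 in TNF-α and -0.33 in TNF-α+WBT, both from Con, with 95% intervals of -0.67 to 0.02 and -0.68 to 0.02 and limma adjusted p of 0.353 and 0.369. These intervals hold 0 and also the value of Id3, so Id1 could not be told from either. Only 105 to 218 fragments per library lay behind these values, the fewest of the 3 Id genes.

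Id2 (ENSMUSG00000020644, chromosome 12, 25093799 to 25097140, minus strand) gave a different answer on different scales. In FPKM it stood at 14.1, 13.0 and 13.6 in Con, at 16.8, 10.6 and 17.5 in TNF-α and at 14.4, 11.4 and 15.7 in TNF-α+WBT. TNF-α 2 and TNF-α+WBT 2 were the lowest of all libraries, and the others of their groups were above every Con library. The log2 difference in TNF-α from Con was 0.10, with a 95% interval of -0.33 to 0.54 and a limma adjusted p of 0.868, and in TNF-α+WBT from Con it was 0.02 (interval -0.42 to 0.45, limma adjusted p = 0.988).

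The transcript table placed these 2 libraries apart. Id2-201, of 1270 bases, stood at 11.8 to 12.7 FPKM in Con, at 15.6 and 17.1 in TNF-α 1 and 3, and at 13.7 and 14.7 in TNF-α+WBT 1 and 3, but at 0.0934 in TNF-α 2 and 0.308 in TNF-α+WBT 2. There Id2-202, of 1969 bases and with an added upstream exon, held 9.44 and 9.90 FPKM, against 0 to 0.382 FPKM in the other 7. A fragment counts for less FPKM in a longer transcript, so the gene was also summed in fragments per 1000000 fragments of the library, a scale chosen after this division was seen. On that scale Id2 stood at 17.7, 16.4 and 17.0 in Con, 21.3, 19.7 and 22.2 in TNF-α and 18.2, 21.1 and 20.0 in TNF-α+WBT, with every stimulated library above every Con library. The log2 difference of TNF-α from Con became 0.30 (limma adjusted p = 0.0417), and that of TNF-α+WBT from Con 0.21 (limma adjusted p = 0.169). Whether the upstream exon was used in those 2 libraries, or fragments were assigned to another transcript, was not tested.

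**Figure D2:**
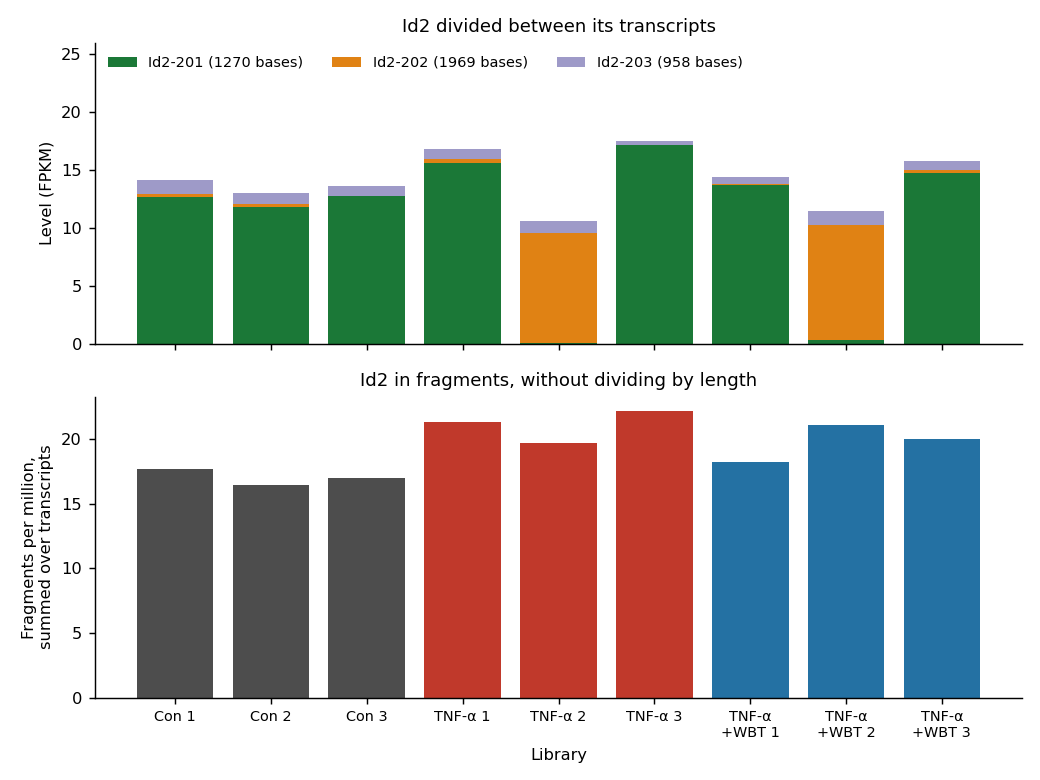
Upper panel: Id2 in each library in FPKM, as stacked bars of its transcripts Id2-201, Id2-202 and Id2-203; lower panel: Id2 in fragments per 1000000, summed over transcripts, coloured by group (Con grey, TNF-α red, TNF-α+WBT blue). Id2-202 takes nearly the whole bar in TNF-α 2 and TNF-α+WBT 2, the 2 shortest bars above, while the lower bars of all 6 stimulated libraries, from 18.2 to 22.2, are above the 3 Con bars.

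The 3 Id genes together therefore held less FPKM after TNF-α, with a different make-up. Their sum was 54.8 ± 1.75 FPKM (SD, n = 3) in Con, 43.6 ± 3.67 in TNF-α and 42.6 ± 4.40 in TNF-α+WBT. Id3 made up 59.2% ± 1.78 of the sum in Con, 49.8% ± 3.03 in TNF-α and 51.1% ± 2.59 in TNF-α+WBT, and Id2 24.8% ± 0.212, 34.0% ± 6.24 and 32.4% ± 2.23. Id1 kept a share of 16.0% to 16.5% on average in the 3 groups. The shares of Id2 carry the uneven division between transcripts described above.

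Bmp4 (ENSMUSG00000021835, chromosome 14, 46383520 to 46390669, minus strand) was the only abundant ligand among the members. It encodes a secreted BMP that signals through BMPR1A and BMPR2. In 707 to 983 estimated fragments per library, its level was 17.7, 18.9 and 17.3 FPKM in Con, 22.9, 23.3 and 21.0 FPKM in TNF-α, and 22.5, 25.8 and 22.5 FPKM in TNF-α+WBT. All 6 stimulated libraries were above the 3 Con libraries, and the 2 stimulated groups overlapped. The log2 difference from Con was 0.31 in TNF-α (standard error 0.068, limma adjusted p = 0.0371) and 0.39 in TNF-α+WBT (standard error 0.068, limma adjusted p = 0.0173). Between TNF-α+WBT and TNF-α it was 0.07, with a 95% interval of -0.08 to 0.23. The retained-intron transcript Bmp4-204, of 258 bases, held 2.07, 2.30 and 1.89 FPKM in TNF-α 2, TNF-α+WBT 1 and TNF-α+WBT 2. These values rested on 12.1, 10.9 and 9.6 fragments, and the other libraries held at most 0.160 FPKM. Summed in fragments, as for Id2, Bmp4 differed from Con by 0.285 in TNF-α and 0.3135 in TNF-α+WBT (limma adjusted p = 0.0461 and 0.0368). On that scale the difference between TNF-α+WBT and TNF-α was 0.0285.

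The call of Bmp4 was less firm than that of Id3, since its adjusted p lay close to the threshold. In TNF-α against Con it passed in 2 of the 9 fits that left out 1 library, with log2 differences between 0.28 and 0.36 and adjusted p between 0.0207 and 0.128 (limma), and was lost without any one of Con 1, Con 2, Con 3, TNF-α 1, TNF-α 2, TNF-α+WBT 1 and TNF-α+WBT 3. In TNF-α+WBT against Con it passed in 7 of 9, with log2 differences between 0.32 and 0.42, and was lost without Con 1 and without Con 3 (limma adjusted p = 0.0646 and 0.0723). Bmp4-201, the coding transcript of 2064 bases with 91.6% of the gene, was 0.32 higher on the log2 scale in TNF-α than in Con (limma adjusted p over all transcripts = 0.414). Its exons overlap those of Gm15217 on the opposite strand, and the library kit does not mark strand, so reads of the 2 genes cannot be told apart there.

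Bmp2 and Bmp7, the other ligands, were at the edge of detection. Bmp2 (ENSMUSG00000027358) had 0 to 12.1 estimated fragments per library: 5.5, 3.5 and 0 in Con, 12.1, 10.1 and 6.4 in TNF-α and 2.0, 5.0 and 2.0 in TNF-α+WBT. The 3 TNF-α libraries were the highest, and their groups did not overlap with the others. On log2(FPKM + 0.1) the difference was 0.77 in TNF-α against Con and -0.65 in TNF-α+WBT against TNF-α (limma adjusted p = 0.117 and 0.706), and the size depends on the added 0.1, which exceeds most of the levels. Summed in fragments, as for Id2, the differences were 1.435 and -1.107 (limma unadjusted p = 0.0107 and 0.0346), past the cut-offs of the study. The limma adjusted p were 0.109 and 0.711. The paper states that WBT raised BMP2, while here the few fragments were lower in TNF-α+WBT than in TNF-α. Bmp7 (ENSMUSG00000008999) was listed at 0 in all 9 libraries, which at these depths allows up to 3 fragments per library.

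**Figure D3:**
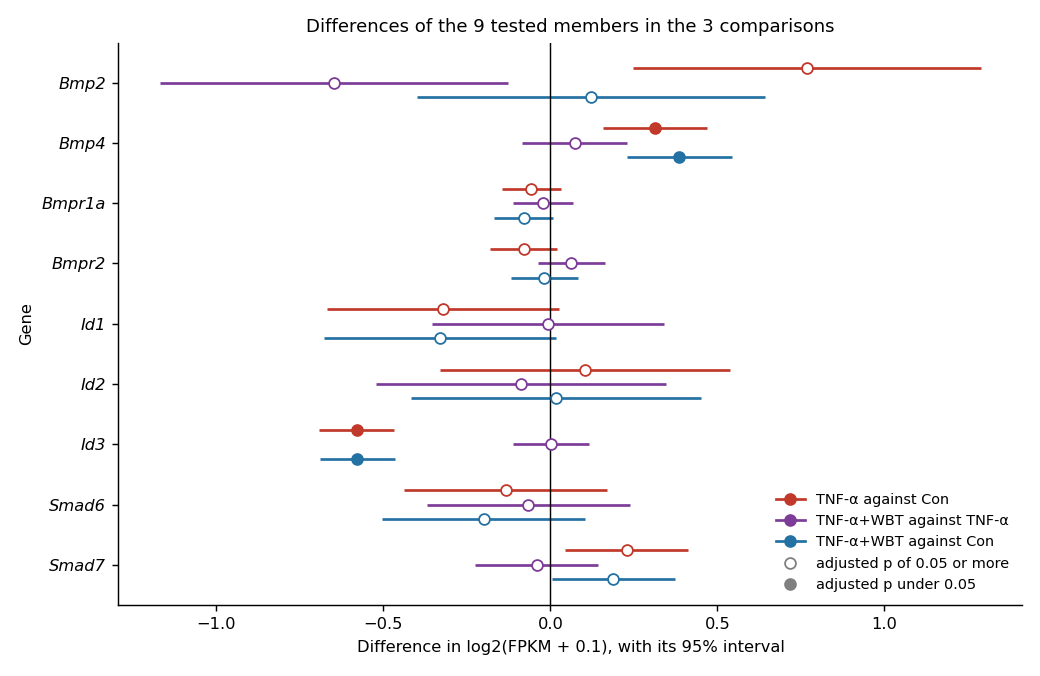
Difference in log2(FPKM + 0.1) (horizontal axis) with its 95% interval for the 9 tested members in TNF-α against Con (red), TNF-α+WBT against TNF-α (purple) and TNF-α+WBT against Con (blue), with filled points at an adjusted p under 0.05 (limma). The filled points are those of Id3, at -0.58 in both comparisons with Con, and of Bmp4, at 0.31 and 0.39.

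The receptors were the steadiest members. Bmpr1a (ENSMUSG00000021796, chromosome 14, 34410734 to 34503341, minus strand), which encodes a type I receptor, stood at 21.7, 20.7 and 21.3 FPKM in Con, 20.9, 19.8 and 20.6 in TNF-α and 20.3, 20.2 and 19.9 in TNF-α+WBT. Bmpr2 (ENSMUSG00000067336, chromosome 1, 59763400 to 59879014, plus strand), which encodes the type II receptor, stood at 13.3, 13.1 and 14.0 FPKM in Con, 12.7, 12.8 and 12.8 in TNF-α and 13.6, 13.2 and 13.1 in TNF-α+WBT. Bmpr2 was lower in each TNF-α library than in every library of the other groups, by a small margin. Bmpr1a was lower in each TNF-α+WBT library than in every Con library.

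No difference of the receptors passed the adjusted test. The log2 difference between TNF-α and Con was -0.06 for Bmpr1a (95% interval -0.15 to 0.03) and -0.08 for Bmpr2 (interval -0.18 to 0.02), with limma adjusted p of 0.557 and 0.438. Summed in fragments, as for Id2, the differences were -0.079 and -0.0707 (limma unadjusted p = 0.0444 and 0.0401, adjusted p = 0.256 and 0.241). Between TNF-α+WBT and Con, Bmpr1a was -0.0877 on that scale (limma unadjusted p = 0.0292, adjusted p = 0.227). In FPKM the intervals of the receptors in the 3 comparisons lie between -0.18 and 0.16 on the log2 scale. They rest on 1945 to 3252 fragments of Bmpr1a and 2818 to 4471 of Bmpr2 per library. Bmpr1a shares exon sequence with Gm17110 on the opposite strand, and unstranded reads there cannot be assigned to one gene.

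Neither of the inhibitory SMADs passed the adjusted test. Smad7 (ENSMUSG00000025880) stood at 4.32, 4.13 and 4.02 FPKM in Con, 5.23, 4.96 and 4.50 FPKM in TNF-α and 4.55, 4.78 and 4.93 FPKM in TNF-α+WBT, so that all stimulated libraries were above the Con libraries. Its log2 difference from Con was 0.23 in TNF-α (95% interval 0.05 to 0.41, limma adjusted p = 0.190) and 0.19 in TNF-α+WBT (interval 0.00 to 0.37, limma adjusted p = 0.324). Smad6 (ENSMUSG00000036867, chromosome 9, 63953076 to 64022059, minus strand), the inhibitor more specific to BMP signals, stood at 3.02, 3.49 and 2.60 FPKM in Con, 2.85, 2.85 and 2.53 in TNF-α and 2.56, 2.92 and 2.39 in TNF-α+WBT. The groups overlapped, and its log2 difference was -0.13 in TNF-α (interval -0.44 to 0.17, limma adjusted p = 0.720) and -0.20 in TNF-α+WBT (interval -0.50 to 0.10, limma adjusted p = 0.570), both from Con. The intervals of Smad6 and Smad7 overlap, and the difference between the genes was not tested.

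The order of the members by level changed at its top. In Con it ran Id3 (32.4 ± 1.04 FPKM, SD, n = 3), Bmpr1a (21.3 ± 0.514), Bmp4 (18.0 ± 0.794), Id2 (13.6 ± 0.546), Bmpr2 (13.5 ± 0.480), Id1 (8.79 ± 1.03), Smad7 (4.16 ± 0.151) and Smad6 (3.04 ± 0.441), with Bmp2 and Bmp7 last. Of these neighbours only Id2 and Bmpr2, and Bmp2 and Bmp7, overlapped between libraries. In both stimulated groups Bmp4 came first and overlapped with Id3, at 22.4 ± 1.26 and 21.6 ± 0.598 FPKM in TNF-α and at 23.6 ± 1.89 and 21.7 ± 1.17 FPKM in TNF-α+WBT. The order from Bmpr1a down was otherwise that of Con.

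The genes whose values ran most alike with those of each member over the 9 libraries are a description of these libraries and carry the group differences within them. By Pearson correlation of log2(FPKM + 0.1) among the 12680 genes averaging 1 FPKM or more, those nearest to Id3 were Tst (r = 0.99), Rcan1 (0.99) and Dok4 (0.99). Tst averaged 18.9 FPKM in Con and 13.1 in both stimulated groups, and Dok4 10.7, 5.14 and 5.10 FPKM in Con, TNF-α and TNF-α+WBT. Nearest to Bmp4 were Zbp1 (0.98), Rnf150 (0.98) and Ier3 (0.98), of which Ier3 averaged 19.1, 31.8 and 34.8 FPKM in the same order. For Smad7 they were Rab32 (0.98), Ccdc91 (0.96) and Zfp275 (0.96), for Bmpr1a 1810058I24Rik (0.96), Ybx1 (0.95) and Ddx18 (0.94), and for Bmpr2 Rapgef1 (0.95), Nhs (0.94) and AC122442.1 (0.92). For Id1 they were Snn (0.95), Fam180a (0.94) and Zfp747 (0.93), for Smad6 Flrt3 (0.93), Capns1 (0.91) and Zfp3 (0.90), and for Id2 Flvcr1 (0.89), Wdfy3 (0.89) and Ints4 (0.88).

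The rest of the pathway was read from 68 further genes in 7 groups by role, of which 58 were tested and 35 were above 1 FPKM in all 9 libraries. Between TNF-α and Con, 4 of the 58 were higher and 6 lower at an adjusted p under 0.05 (limma), against 2.94% and 1.93% of all genes. With WBT against TNF-α alone 0 passed (0.00393% of all genes), and 8 had an unadjusted p under 0.05, against 6.31% of all genes. Between TNF-α+WBT and Con 4 were higher and 3 lower, against 2.31% and 1.40%. Over the 58 genes the median log2 difference was -0.03, 0.01 and -0.02 in the 3 comparisons, where it was 0.00 in each over all genes tested. At these cut-offs of the study 3 were higher in TNF-α than in Con, Nog, Fst and Id4, and 1, Fst, in TNF-α+WBT than in Con, where 2.42% and 2.29% of all genes reached them in either direction; Fst and Id4, with means under 1 FPKM, are named after their values were seen.

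**Figure D4:**
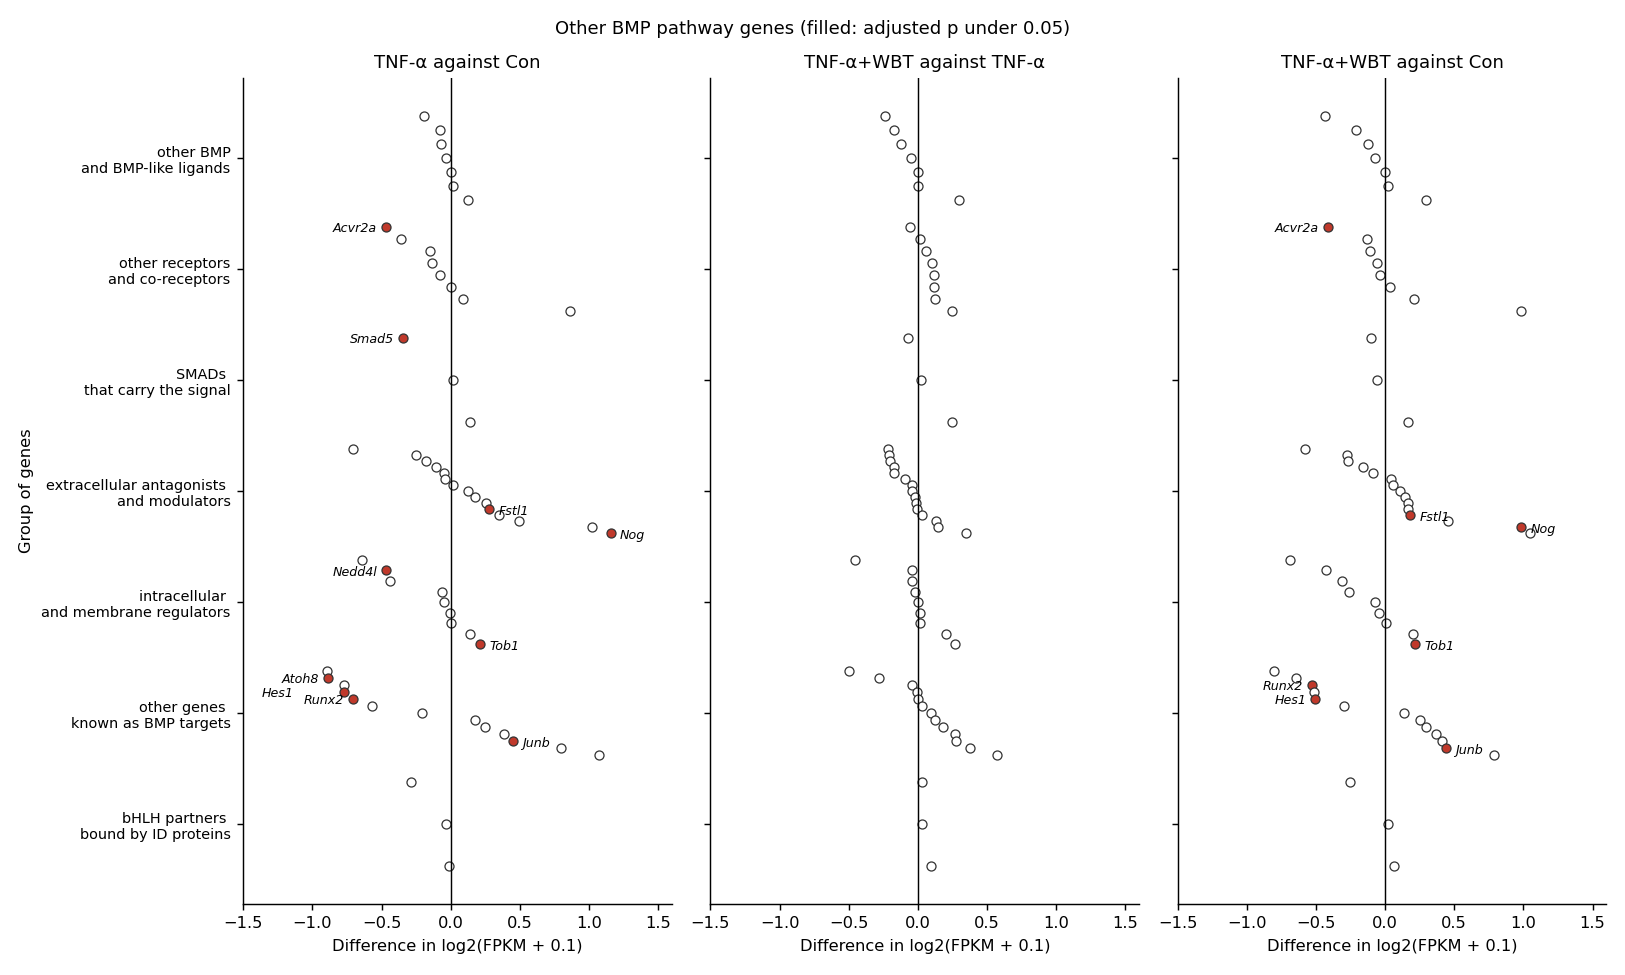
Difference in log2(FPKM + 0.1) (horizontal axes) of 58 other BMP pathway genes in 7 groups by role (vertical axis) in each of the 3 comparisons, with 1 point per gene, filled and named at an adjusted p under 0.05 (limma). TNF-α against Con has 10 filled points, TNF-α+WBT against TNF-α has 0, and TNF-α+WBT against Con has 7.

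Among the other ligands, 7 of 11 were tested and 0 passed in any comparison (limma), with 0, 1 and 1 at an unadjusted p under 0.05. Over all genes 16.1%, 6.31% and 14.7% had such an unadjusted p. At the adjusted p 2.94% were higher and 1.93% lower in TNF-α than in Con, and 2.31% and 1.40% in TNF-α+WBT than in Con. Between TNF-α+WBT and TNF-α 0.00393% passed. Bmp6, a ligand known for control of iron through hepcidin, was the only one of them above 1 FPKM in all libraries, at 18.2, 18.7 and 18.0 FPKM in Con, 17.5, 18.4 and 16.2 in TNF-α and 16.0, 17.3 and 17.0 in TNF-α+WBT. Its level overlapped between Con and TNF-α, and the log2 difference was -0.07 (95% interval -0.20 to 0.05). In TNF-α+WBT every library was below every Con library, with a log2 difference from Con of -0.13 (interval -0.25 to 0.00, limma adjusted p = 0.340). Bmp4 and Bmp6 thus made up nearly all of the ligand FPKM measured, and Bmp4 was 49.5% ± 0.628 of their sum in Con, 56.3% ± 0.377 in TNF-α and 58.4% ± 1.48 in TNF-α+WBT (SD, n = 3).

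Among the other receptors and co-receptors, 8 of 9 were tested, and Acvr2a alone was called, lower in both comparisons with Con (1.93% and 1.40% of all genes were lower). Without regard to the test, 3 of the 8 values were higher and 5 lower in TNF-α than in Con. The highest was Acvrl1, under 1 FPKM on average and named after its values were seen, at 0.86 (limma adjusted p = 0.267). Acvr2a encodes a type II receptor shared by activins and BMPs. Its level was 6.69, 6.69 and 6.33 FPKM in Con, 4.68, 4.84 and 4.66 in TNF-α and 5.14, 5.15 and 4.48 in TNF-α+WBT, with every Con library highest. The log2 difference from Con was -0.47 in TNF-α (limma adjusted p = 0.00851) and -0.41 in TNF-α+WBT (limma adjusted p = 0.0196). The second call was lost without any one of Con 1, Con 2, Con 3 and TNF-α+WBT 3, at limma adjusted p of 0.0516 to 0.0723. Eng, the co-receptor endoglin, was the most abundant of the group at 40.2 to 45.8 FPKM, with a log2 difference of 0.00 (95% interval -0.11 to 0.12) between TNF-α and Con.

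Of the SMADs that carry the signal, 3 of 4 were tested. Smad5 stood at 33.7, 32.0 and 38.0 FPKM in Con, 27.6, 27.3 and 26.5 FPKM in TNF-α and 30.7, 33.3 and 32.7 FPKM in TNF-α+WBT. The TNF-α libraries were below all others, and TNF-α+WBT overlapped with Con. The log2 difference of TNF-α from Con was -0.35 (limma adjusted p = 0.0173), lost without TNF-α 2 and without TNF-α 3 (limma adjusted p = 0.0586 and 0.0704). It was also lost with no filter on low values and with no intensity trend (limma adjusted p = 0.0666 and 0.0744). Between TNF-α+WBT and TNF-α it was 0.25, with an interval of 0.10 to 0.39 and a limma adjusted p of 0.559. Smad1 and Smad4 did not pass at the adjusted p in any comparison, and Smad9 was not tested. Smad1 stood at 18.2 to 19.2 FPKM in Con and at 19.6 to 21.8 FPKM over the stimulated libraries, all of them above Con, with log2 differences from Con of 0.14 in TNF-α and 0.16 in TNF-α+WBT (limma adjusted p = 0.220 and 0.160).

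Of 19 extracellular antagonists and modulators, 15 were tested, and 2 were higher and 0 lower at the adjusted p than in Con, both in TNF-α (2.94% and 1.93% of all genes) and in TNF-α+WBT (2.31% and 1.40%). Without regard to the test, 9 of the 15 values were higher and 6 lower in TNF-α than in Con. Fstl3 and Nbl1, named here after their values were seen, were among the lower ones, at log2 differences of -0.71 and -0.25 (limma adjusted p = 0.0600 and 0.0779). Nog, which encodes the BMP antagonist noggin, stood at 1.34, 1.33 and 1.22 FPKM in Con, 2.85, 3.05 and 3.17 in TNF-α and 2.58, 2.06 and 3.56 in TNF-α+WBT. All stimulated libraries were above all Con libraries, and TNF-α+WBT spread on both sides of TNF-α. The log2 difference of Nog from Con was 1.16 in TNF-α (limma adjusted p = 0.00793) and 0.99 in TNF-α+WBT (limma adjusted p = 0.0216), from 41.9 to 117 fragments per library. The call in TNF-α+WBT was lost without any one of Con 1, Con 2, Con 3 and TNF-α+WBT 1, at limma adjusted p of 0.0615 to 0.0813.

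Fstl1, a secreted follistatin-like protein, was far more abundant. It stood at 73.4, 77.6 and 75.2 FPKM in Con, 91.1, 95.0 and 88.6 in TNF-α and 85.7, 84.1 and 87.1 in TNF-α+WBT. The 3 groups did not overlap, with TNF-α+WBT between the others. The log2 difference from Con was 0.28 in TNF-α (limma adjusted p = 0.00314) and 0.18 in TNF-α+WBT (limma adjusted p = 0.0313); between TNF-α+WBT and TNF-α it was -0.10 (limma adjusted p = 0.741). The call in TNF-α+WBT was lost without any one of Con 1, Con 3, TNF-α 1, TNF-α+WBT 1, TNF-α+WBT 2 and TNF-α+WBT 3, at limma adjusted p of 0.0563 to 0.110, and that in TNF-α with no intensity trend (limma adjusted p = 0.0515). Bmp1, a protease that cleaves the antagonist chordin and procollagens and is not a BMP ligand in spite of its name, was the most abundant of the group at 88.0 to 110 FPKM, with a log2 difference between TNF-α and Con of -0.11 (95% interval -0.27 to 0.06). Summed in fragments, as for Id2, Bmp1 was called lower, by a log2 difference of -0.16 (limma adjusted p = 0.0400).

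All 9 intracellular and membrane regulators were tested, with 1 higher and 1 lower in TNF-α than in Con, against 2.94% and 1.93% of all genes. Tob1, an antiproliferative protein that can restrain SMAD signals, stood at 51.0, 51.0 and 51.8 FPKM in Con, 59.7, 59.3 and 59.5 in TNF-α and 60.2, 59.5 and 59.2 in TNF-α+WBT. The stimulated libraries were all above Con, and the log2 difference was 0.21 in TNF-α (limma adjusted p = 0.00235) and 0.22 in TNF-α+WBT (limma adjusted p = 0.00277). Both calls were lost when the model had no intensity trend (limma adjusted p = 0.0850 and 0.0907). Nedd4l, a ubiquitin ligase that acts on SMADs and on sodium channels, stood at 20.8, 20.1 and 23.8 FPKM in Con, 15.3, 14.3 and 17.2 in TNF-α and 18.0, 17.3 and 18.4 in TNF-α+WBT. Its log2 difference from Con was -0.46 in TNF-α (limma adjusted p = 0.0148), lost without TNF-α 1 and without TNF-α 2 (limma adjusted p = 0.0565 and 0.0538), and -0.26 in TNF-α+WBT (limma adjusted p = 0.164). The call was also lost with no filter and with only the compared groups in the fit (limma adjusted p = 0.0650 and 0.0546).

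Among 13 other genes known as BMP targets, all were tested, and 1 was higher and 3 lower in TNF-α than in Con, against 2.94% and 1.93% of all genes. Hes1, a bHLH repressor best known as a Notch target, stood at 30.5, 29.4 and 30.9 FPKM in Con, 18.1, 16.9 and 18.1 in TNF-α and 21.0, 21.3 and 21.6 in TNF-α+WBT. The groups did not overlap. The log2 difference of Hes1 from Con was -0.77 in TNF-α (limma adjusted p = 1.84e-05) and -0.50 in TNF-α+WBT (limma adjusted p = 0.000295), and between TNF-α+WBT and TNF-α it was 0.26 (95% interval 0.17 to 0.36, limma adjusted p = 0.193).

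Runx2, the master factor of bone formation, stood at 18.5, 17.5 and 20.3 FPKM in Con, 12.0, 10.7 and 11.6 in TNF-α and 12.6, 13.4 and 12.9 in TNF-α+WBT. Its log2 difference from Con was -0.71 in TNF-α (limma adjusted p = 0.000502) and -0.53 in TNF-α+WBT (limma adjusted p = 0.00328). Atoh8, a bHLH factor, stood at 4.61, 4.30 and 4.82 FPKM in Con, 2.88, 2.23 and 2.21 in TNF-α and 2.91, 3.49 and 3.14 in TNF-α+WBT. The log2 difference of Atoh8 from Con was -0.89 in TNF-α (limma adjusted p = 0.00426) and -0.51 in TNF-α+WBT (limma adjusted p = 0.0691). For both genes the Con libraries were highest and the TNF-α libraries lowest, with none shared between groups.

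Junb went the other way. This AP-1 subunit, an early target of many signals, stood at 71.1, 69.5 and 65.9 FPKM in Con, 94.0, 96.3 and 92.1 in TNF-α and 90.3, 101 and 89.4 in TNF-α+WBT, with a log2 difference from Con of 0.45 in TNF-α (limma adjusted p = 0.00176) and 0.44 in TNF-α+WBT (limma adjusted p = 0.00250). The Schwann cell and neural crest marker sums given beside Id3 fell in the same contrast as Hes1, Runx2 and Atoh8, and their part was not tested here either.

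The 3 bHLH partners bound by ID proteins, Tcf3, Tcf4 and Tcf12, gave 0 calls in the 3 comparisons (limma), with 0 at an unadjusted p under 0.05. Such an unadjusted p was reached by 16.1%, 6.31% and 14.7% of all genes, so 3 genes are too few to tell from that share. Tcf12 was the most abundant at 73.4, 82.4 and 84.4 FPKM in Con, 49.7, 77.6 and 73.1 in TNF-α and 47.7, 81.0 and 77.5 in TNF-α+WBT. TNF-α 1 and TNF-α+WBT 1 stood well below the rest, and the log2 difference between TNF-α and Con was -0.29 with an interval of -0.80 to 0.22.

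**Figure D5:**
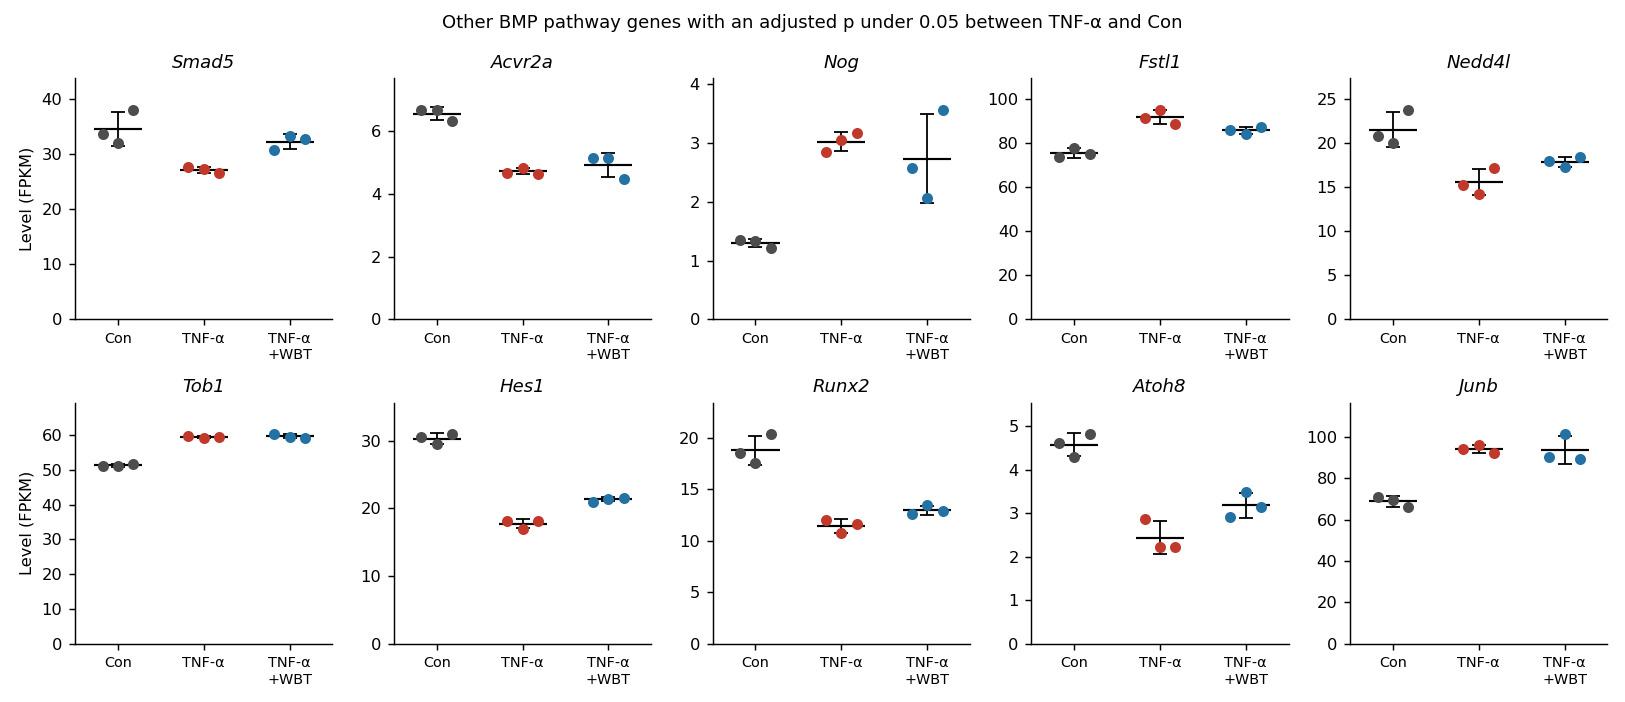
Level in FPKM (vertical axes, each starting at 0) of the 10 other pathway genes called in TNF-α against Con (limma, adjusted p under 0.05), with 1 point per library, a line at the group mean and bars of 1 SD. Smad5, Acvr2a, Nedd4l, Hes1, Runx2 and Atoh8 are lower in TNF-α than in Con, and Nog, Fstl1, Tob1 and Junb are higher.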

How the data were processed

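Levels were taken from the FPKM tables of genes and of transcripts that the authors deposited; their flow chart names HISAT2, StringTie and Ballgown, with versions and genome build not given in the sources used here. Poly(A) RNA was read as paired ends with a kit that does not mark strand. Symbols and positions came from GENCODE M21 (GRCm38), which held 98.1% of the 56289 gene IDs. Of the 56289 genes, 25417 exceeded 0 FPKM in 3 or more libraries and were tested with limma 3.58.1 in R 4.3.3 on log2(FPKM + 0.1), fitting 3 group means to the 9 libraries with an intensity trend and Benjamini-Hochberg adjustment over all of them. The paper calls the 3 libraries of a group biological replicates; the labels do not say that they came from separate cultures, and p-values measure the spread between these libraries.

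FPKM state no depth, so it was estimated from the smallest steps of 10706 single-transcript genes longer than 1000 bases; 55.7% to 59.0% of low values per library then lay within 0.1 of a whole fragment. Fragments were used for precision and for 1 alternative, and limits cover counting error only. A count test was not run, since too few values came out whole. No 2 libraries held identical values.

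The members and gene lists were chosen with earlier results of these data known. The alternatives were other pseudocounts, filters and scalings, a fit without trend or of 2 groups alone, transcript sums, a replicate block and leaving out each library. All 10 members are named. Of the other pathway genes those with an adjusted p under 0.05, those past the study's thresholds with a mean of at least 1 FPKM and the most abundant of each group are named, as are the 3 genes most like each member and transcripts with at least 5% of their gene. Bmp4-204, with 3.62% of its gene, is named after its values were seen. The model was tested on simulated data with known changes, larger than any called among the members and other pathway genes. That test does not bear on changes of the size reported for these genes. Figures were drawn with matplotlib 3.10.9, and tables were made in Python 3.11.15 with numpy 2.4.6, pandas 2.3.3 and scipy 1.17.1.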

Additional observations from a re-analysis of the deposited data

How the results depend on the processing

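Id3 passed in both comparisons with Con under every alternative run. Bmp4 did not: the number of members called between TNF-α and Con was 1 in place of 2, Id3 alone, with no filter on low values, without the intensity trend, with median centring and with quantile normalization, and the number between TNF-α+WBT and Con was 1 in place of 2 with no filter and without the trend (all limma). In TNF-α against Con the adjusted p of Bmp4 was then 0.118, 0.115, 0.0704 and 0.0530. Of the other pathway genes, 4 in place of 7 were called between TNF-α+WBT and Con when only those groups entered the fit (Hes1, Junb, Runx2 and Tob1), and 1 in place of 0, Bmp8a, between TNF-α+WBT and TNF-α with no filter. Over all genes the former fit called 385 higher and 263 lower, in place of 586 and 356. The latter called 9 higher and 1 lower of 56289, in place of 1 and 0 of 25417. Bmp8a was at 0 in 6 libraries and held at most 1.0 estimated fragment in any library, so it is at the edge of detection. Without 1 library the calls among members numbered 1 to 2 in each comparison with Con, and those among other pathway genes 8 to 11 in TNF-α and 4 to 7 in TNF-α+WBT; the fewest, 4, were without Con 3. In TNF-α+WBT against TNF-α both stayed at 0. Calls of other pathway genes in TNF-α were lost for Smad5 and Nedd4l with no filter, for Smad5, Tob1 and Fstl1 without the trend and for Nedd4l when only the compared groups entered the fit. In TNF-α+WBT against Con they were lost for Fstl1 and Nog with no filter, for Fstl1 and Tob1 without the trend, for Fstl1 with median centring and for Acvr2a, Fstl1 and Nog with only those groups, and Atoh8 was gained among genes averaging 1 FPKM or more. The causes were not tested. Over the single genes named, 1287 values under the alternatives kept direction and side of the threshold, 49 lost the call, 4 gained it and 37 changed sign, none of the last with a call.

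The changes of sign were in differences near 0. Eng, between TNF-α and Con, was -0.019 with median centring, -0.017 with quantile normalization and -0.0047 in fragments. Between TNF-α+WBT and TNF-α, Id1 was 0.0058 with median centring and 0.0052 in fragments, Junb 0.0040 with median centring and 0.0091 with quantile normalization, and Tcf12 -0.041 in fragments. Bmp1 was -0.092 between TNF-α+WBT and Con in fragments. Without 1 library, the log2 difference between TNF-α and Con ranged from -0.028 to 0.34 for Id2, the highest without TNF-α 2, and from -0.025 to 0.032 for Eng. That between TNF-α+WBT and TNF-α ranged from -0.16 to 0.10 for Id1, -0.32 to 0.044 for Id2, -0.032 to 0.045 for Id3, -0.10 to 0.0075 for Smad7, -0.067 to 0.023 for Junb, -0.37 to 0.0062 for Nog, -0.17 to 0.27 for Tcf12 and -0.0035 to 0.0090 for Tob1. That between TNF-α+WBT and Con ranged from -0.082 to 0.25 for Bmp2, -0.039 to 0.010 for Bmpr2 and -0.082 to 0.15 for Id2. In fragments 3 members, Bmp4, Id2 and Id3, were called between TNF-α and Con, and 13 other pathway genes in place of 10 (8 of them lower), with Bmp1, Nbl1 and Chrdl1 added. Calls rose over all genes too, to 938 higher and 724 lower of 25344, from 746 and 490 of 25417. Between TNF-α+WBT and Con the other pathway genes called were 9 in place of 7, with Bmp8a and Nbl1 added. Over all genes 783 were then higher and 531 lower, in place of 586 and 356.

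The replicate numbers were not taken to pair the libraries: same-numbered libraries correlated by -0.0674 to 0.0953 in their deviations from the group means, libraries of different numbers by -0.105 to 0.0966, and not every library correlated best with its own number. With the replicate block 2 members were called in each comparison with Con and 0 in TNF-α+WBT against TNF-α. Of the other pathway genes, 10 were called in TNF-α against Con, 0 in TNF-α+WBT against TNF-α and 5 in TNF-α+WBT against Con. Fstl1 and Nog were lost between TNF-α+WBT and Con (limma adjusted p = 0.0777 and 0.0530). Calls fell over all 25417 genes too, to 555 higher and 338 lower in TNF-α than in Con, from 746 and 490. In TNF-α+WBT against Con they fell to 448 and 253, from 586 and 356, and between TNF-α+WBT and TNF-α there were 0. Depth limits Bmp2, at 0 to 12.1 estimated fragments, Bmp7, at 0, and Bmp8a, at 0 to 1.0.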
